A study of Mus musculus with 6 samples.

Results

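The ETS factors described here are 9 transcription factor genes of the mouse, namely Etv1, Etv4, Etv5, Etv6, Ets1, Ets2, Elf1, Elf3 and Gabpa, and they were followed in embryonic stem (ES) cells with and without Med23. They were taken as ETS family genes outside the ELK genes and Elf5, some of whose proteins are reported partners of MED23, and each was read from every probe set that the platform annotation gives to its symbol alone. Of the 9 genes, 8 had such a probe set, 19 probe sets in all, out of 18193 genes and 45037 probe sets measured. Etv1 had none, since its 3 probe sets carry a second symbol as well. The samples were 3 Affymetrix arrays of Med23 knockout ES cells and 3 arrays of wild-type ES cells, both of the 129SV strain, all taken 24 hours after a change to fresh complete medium. The labels call the replicates biological and do not say how the knockout was made or from how many clones the cells came. The p values therefore measure the spread between these cultures.

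ETS proteins share a DNA-binding domain that recognises sites built around the bases GGAA, and many of them act at the end of growth factor and MAP kinase signalling. Mediator carries signals from such factors to RNA polymerase II, and its subunit MED23 was found in human cells as a target of the activation domain of ELF3. In ES cells the PEA3 factors Etv4 and Etv5 are known as genes that respond to FGF and ERK signalling, whereas Gabpa serves as a general activator of housekeeping and mitochondrial genes.

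Med23 itself had log2 values of 7.40, 7.37 and 7.33 in the knockout arrays and 8.95, 8.86 and 8.84 in the wild-type arrays, so that the change was -1.52 ± 0.06 (log2, SE; limma adjusted p = 2.69e-05). Fold changes are knockout minus wild type on the deposited log2 scale, and a change was called at an adjusted p under 0.05. All 10 markers of ES cells that were examined, Pou5f1, Nanog and Sox2 among them, lay above 4.62 in both groups, the median over probe sets and called the midpoint here. Of these markers, 3 fell and 0 rose (limma; 3 and 2 at an unadjusted p under 0.05), beside 10.4% lower and 8.53% higher over all genes by their brightest probe sets. The markers that fell were Klf4, Fgf4 and Tdgf1, by 0.63, 0.37 and 0.28 on the log2 scale. Array medians lay between 4.61 and 4.64. Wild-type replicate 1 stood apart, since 752 of its probe sets read 2-fold or more under the average of the other wild-type arrays, against 1 and 4 for wild-type replicates 2 and 3. Those replicates read 2-fold or more above the other wild-type arrays at 75 and 219 probe sets. No knockout array differed so from the other knockout arrays at more than 1 probe set in either direction. The lowest correlation between arrays was 0.993 in the wild type and 0.998 in the knockout. The groups also differed in genes of the Y chromosome. Eif2s3y, for example, averaged 9.87 ± 0.15 in knockout arrays and 3.04 ± 0.37 in wild-type arrays (SD, n = 3 each). An effect of Med23 on an ETS factor gene and any other difference between the lines thus cannot be told apart.

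Read by the brightest probe set of each gene, Elf3, Etv6, Ets2 and Etv4 fell in the knockout, none of the 8 genes rose, and Etv5, Ets1, Elf1 and Gabpa did not pass the test. Elf3 fell more than 2-fold, and the other falls were 1.28-fold to 1.35-fold. At an unadjusted limma p under 0.05, 4 genes were lower and 1, Gabpa, was higher. These 4 of 8 genes stand beside 10.4% of all genes that were lower and 8.53% that were higher by the same rule. The same shares stand beside the counts of each gene list and marker list below. The median log2 fold change of the 8 genes was -0.19, against 0.02 over all genes. Over single probe sets, 6 of 19 were lower and 0 were higher (limma; 7 and 2 at an unadjusted p under 0.05), beside 7.43% lower and 6.69% higher over all probe sets. With 1 array left out, 2 to 4 probe sets were lower, with 2 when it was knockout replicate 1 or wild-type replicate 2. The call of Elf3 held with any 1 array left out, but leaving out 1 array ended the calls of Etv4 and Etv6 in 4 of 6 fits each and that of Ets2 in 1 of 6. With 1 array left out, the number of these genes called lower ranged from 1, without knockout replicate 1, to 4, without wild-type replicate 1 or 3; leaving out knockout replicate 2 or 3 or wild-type replicate 2 gave 2.

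**Figure D1:**
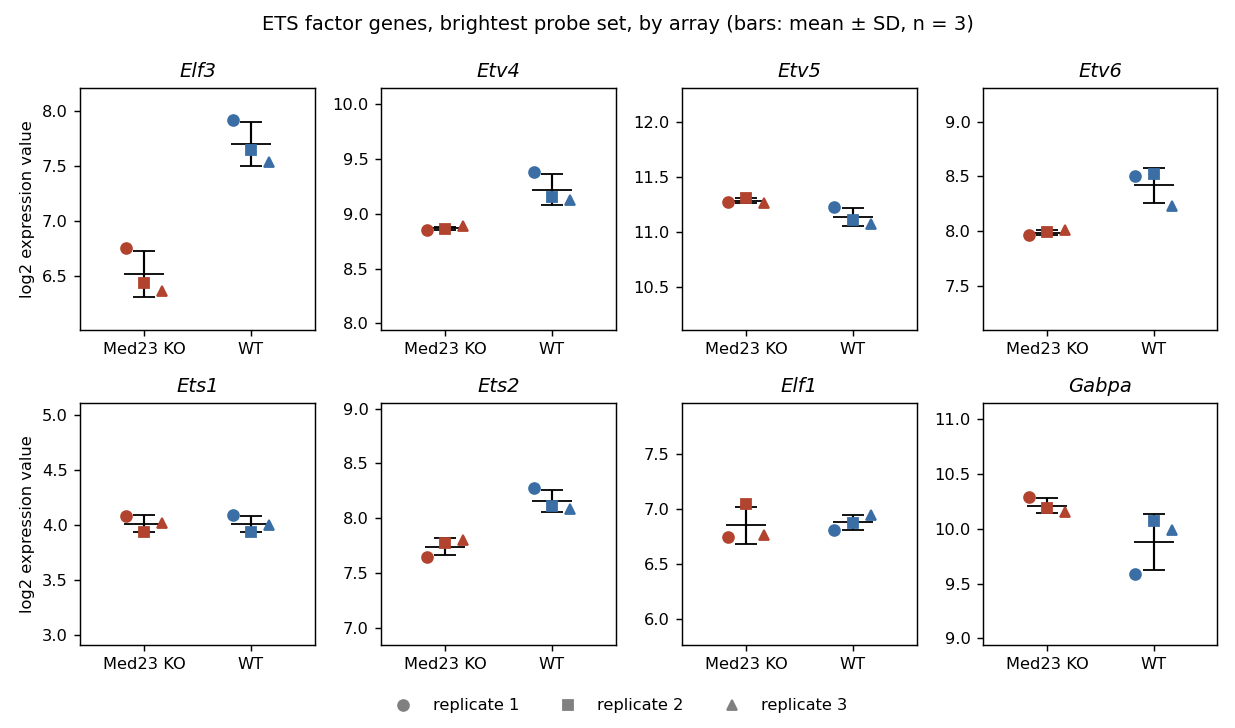
Log2 expression values of the brightest probe set of 8 ETS factor genes in each array, with Med23 knockout arrays left of wild-type arrays; symbols give the replicate, bars the mean and SD (n = 3), and every panel spans the same number of log2 units. Knockout and wild-type arrays of Elf3 are furthest apart, at 6.36 to 6.76 and 7.54 to 7.93.

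**Figure D2:**
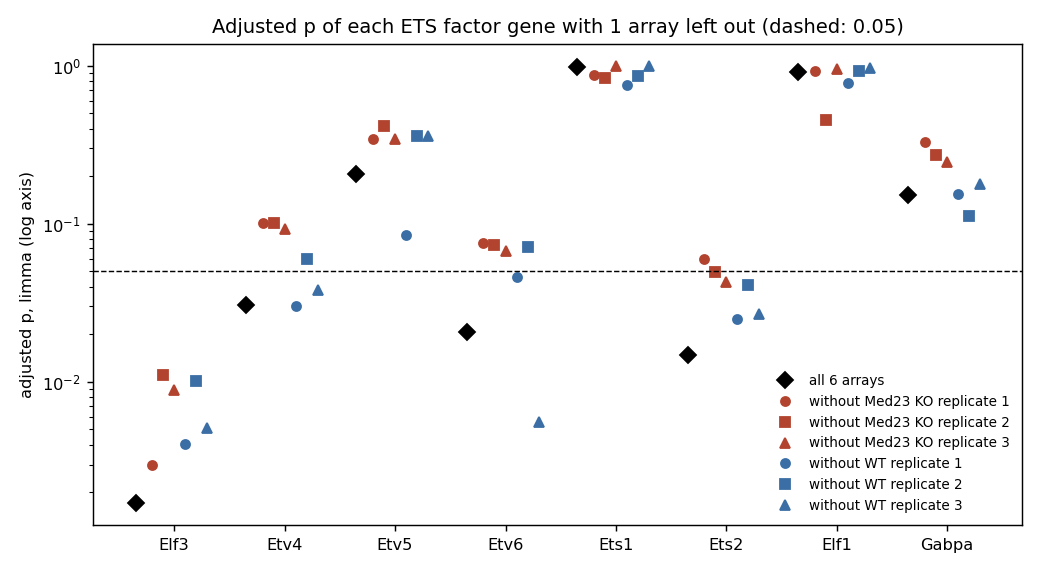
Adjusted p values of limma (log axis) for the brightest probe set of each gene, with all 6 arrays and with each array left out in turn; the dashed line is the threshold of 0.05. Elf3 stays below the line throughout, with a highest value of 0.0111, while the values of Etv4, Etv6 and Ets2 lie on both sides of it.

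Elf3 encodes an ETS factor of epithelial cells, where it is known to activate genes of differentiated epithelium. Its 1 probe set gave log2 values of 6.76, 6.44 and 6.36 in knockout arrays and 7.93, 7.65 and 7.54 in wild-type arrays. All knockout values lay below all wild-type values, with a gap of 0.78 between the nearest arrays. The means were 6.52 ± 0.21 in the knockout and 7.70 ± 0.20 in the wild type (SD, n = 3 each), so that the change was -1.18 ± 0.14 (log2, SE; limma adjusted p = 0.00171) or a 2.27-fold fall. With 1 array left out the log2 fold change ran from -1.30, without knockout replicate 1, to -1.07, without wild-type replicate 1.

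Genes reported as ELF3 targets or known from simple epithelium were examined beside it. The list was chosen with earlier results of these data known, so its counts are a description and no test. Of 14 measured genes of this list, 8 fell, 0 rose and 6 did not pass (limma; 10 lower and 0 higher at an unadjusted p under 0.05), with a median log2 fold change of -0.94 against 0.02 over all genes. Perp, which encodes a desmosome-associated membrane protein, averaged 6.54 ± 0.08 in the knockout and 9.34 ± 0.18 in the wild type (SD, n = 3 each), so that it changed by -2.80 (log2) (limma adjusted p = 1.92e-05). The keratin gene Krt8 and the epithelial adhesion gene Epcam fell by 2.52 and 1.95 on the log2 scale. The other genes of the list that fell were Krt7, Cldn7, Krt18, Grhl2 and Grhl3, and the call of Grhl3 ended in 4 of the 6 comparisons with 1 array left out. Cdh1, the E-cadherin gene, and Erbb2, a reported ELF3 target, had log2 fold changes of 0.09 and 0.18 and did not pass. Tgfbr2, another reported target, had -0.91 with an adjusted p of 0.0631. Nos2, Ptgs2 and Angpt1 lay below the midpoint in both groups and did not pass.

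Markers of other cells that an ES culture can hold were read as well, without a set test, and the endoderm list held the most falls. Of 10 endoderm markers, 9 fell and 0 rose (limma, with the same counts at an unadjusted p under 0.05). Their summed linear signal was 451 to 485 in knockout arrays and 2374 to 3250 in wild-type arrays. Afp lay below the midpoint in both groups, and Gata4, Sox17, Sox7 and Foxa2 did so in the knockout only. Of 10 trophoblast markers, 3 fell and 0 rose (limma; 3 and 1 at an unadjusted p under 0.05), and those 3 were the keratin genes Krt7, Krt8 and Krt18, which also stand in the epithelium list. The other 7 trophoblast markers did not pass. The summed signal of the trophoblast markers was 1216 to 1295 in knockout arrays and 2989 to 3338 in wild-type arrays. Krt8 and Krt18 had the highest wild-type means in that sum, at 10.55 and 9.95. Cdx2, Elf5 and Tpbpa lay below the midpoint in both groups. Of 10 fibroblast markers, 2 fell and 2 rose, their summed signal was 4017 to 4120 in knockout arrays and 3230 to 3366 in wild-type arrays, and 6 of them, among them Col1a1 and Col1a2, lay below the midpoint in both groups. The 2 that rose, Vim and Fn1, were the brightest of the fibroblast markers. The part of such cells in the fall of Elf3 was not tested. In bulk RNA, fewer cells of a type and less RNA per cell cannot be told apart.

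Among the PEA3 factors, Etv4 fell slightly and Etv5 did not pass. Etv4 had 8.85, 8.86 and 8.88 in knockout arrays and 9.38, 9.15 and 9.13 in wild-type arrays. The groups did not overlap, and wild-type replicate 1 was the highest array. The means were 8.87 ± 0.02 in the knockout and 9.22 ± 0.14 in the wild type (SD, n = 3 each), so that the change was -0.35 ± 0.08 (log2, SE; limma adjusted p = 0.0307) or a 1.28-fold fall. Without wild-type replicate 1 it was -0.27. The call ended without any 1 of the knockout arrays or without wild-type replicate 2, with adjusted p values up to 0.101. The second Etv4 probe set had a log2 fold change of -0.12 and overlapping groups (adjusted p = 0.381).

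Etv5 had 11.27, 11.31 and 11.27 in knockout arrays and 11.22, 11.10 and 11.07 in wild-type arrays. The knockout arrays were all above the wild-type arrays, by as little as 0.04. The log2 fold change was 0.15 (95% interval, unadjusted, -0.01 to 0.31, limma adjusted p = 0.205), and the other 2 probe sets had 0.23 and 0.05. The probe set with 0.23 passed without wild-type replicate 1, at 0.33 (adjusted p = 0.0217). Within each array, the Etv4 value minus the Etv5 value was -2.42, -2.45 and -2.38 in the knockout and -1.84, -1.95 and -1.94 in the wild type. It averaged -2.42 ± 0.03 in the knockout and -1.91 ± 0.06 in the wild type (SD, n = 3 each), without overlap, and this pair of genes was set side by side after their values were seen. An exact permutation test gave p = 0.1, the smallest value that the 20 splits of the arrays allow, so it decides nothing.

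Etv1, the remaining PEA3 factor, could be read only together with Gm5454, which RefSeq lists as a pseudogene. The first of the 3 shared probe sets had 8.92, 8.86 and 8.81 in knockout arrays and 7.81, 7.99 and 7.54 in wild-type arrays, so that the change was 1.08 ± 0.12 (log2, SE; limma adjusted p = 0.00123). The second had 7.26, 7.25 and 7.13 in knockout arrays and 6.18, 6.09 and 5.71 in wild-type arrays, so that the change was 1.22 ± 0.13 (log2, SE; limma adjusted p = 0.00103). Both probe sets were higher in every knockout array than in any wild-type array, and both passed with any 1 array left out. The remaining shared probe set lay below the midpoint in both groups and did not pass (log2 fold change 0.13). The annotation pairs the first and second with a transcript of Etv1, but signal from the gene and from the pseudogene cannot be told apart here. These probe sets are not counted among the 19.

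**Figure D3:**
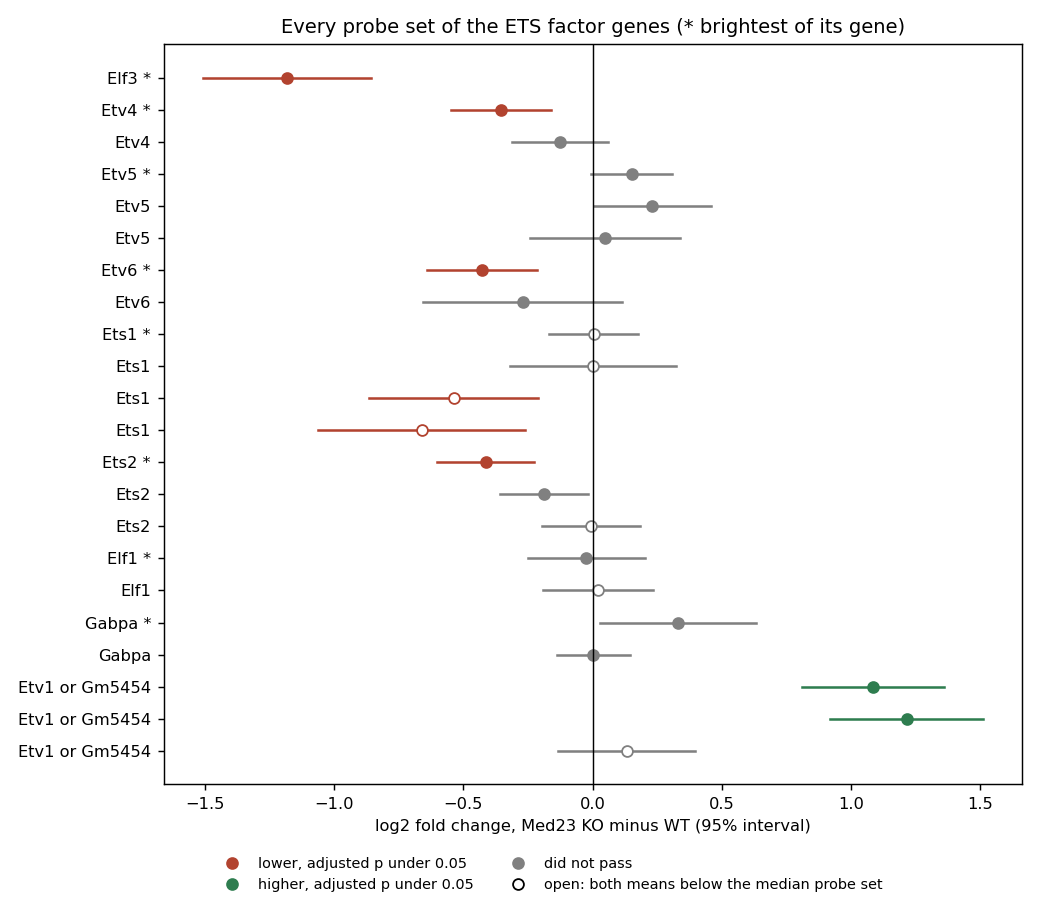
Log2 fold change, Med23 knockout minus wild type, with its 95% interval for each of the 19 probe sets and for the 3 probe sets shared by Etv1 and Gm5454; colours give the call and open points lie below the midpoint in both groups. The 6 probe sets called lower belong to Elf3, Etv4, Etv6, Ets1 and Ets2, and the 2 called higher are shared ones, at 1.08 and 1.22.

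Genes around the PEA3 factors moved in both directions. Of 14 FGF and ERK feedback genes and reported PEA3 targets, 5 fell, 2 rose and 7 did not pass (limma; 5 lower and 6 higher at an unadjusted p under 0.05), with a median log2 fold change of 0.00 (against 0.02 over all genes). Mmp14, a membrane-bound matrix protease gene reported downstream of Etv4 and Etv5 in the kidney, had 5.75, 5.79 and 5.57 in knockout arrays and 7.23, 6.82 and 6.83 in wild-type arrays, the largest change of the list at -1.26 (limma adjusted p = 0.000928). The ERK feedback inhibitor genes Spry2 and Dusp6 fell by 0.92 and 0.56 and Spry4 by 0.54 on the log2 scale. Their relatives Spry1 and Spred2 rose by 0.50 and 0.32, and the call of Spred2 held only when wild-type replicate 1 was the array left out. Wnt11 fell by 0.42, with a knockout mean below the midpoint (limma adjusted p = 0.0316). Its call held only when knockout replicate 2 was the array left out. With 1 array left out, 4 to 5 genes of this list were called lower. Beside 10.4% of all genes lower and 8.53% higher, 0 of 14 partners and regulators of ETS proteins fell, 2 rose and 12 did not pass (limma; 1 lower and 3 higher at an unadjusted p under 0.05). Those that rose were Det1 and Cop1, components of a ubiquitin ligase that is known from human cells to degrade PEA3 factors, with log2 fold changes of 0.34 and 0.27 (limma adjusted p = 0.0474 and 0.0234). The count of 2 was 0 without any 1 of the knockout arrays and without wild-type replicate 2 or 3. For Det1, 1 of 2 probe sets was called, and Atxn1l and Runx1 of this list each had 1 probe set other than the brightest called lower. Cic, a repressor of the PEA3 genes, had 0.22 and did not pass (adjusted p = 0.102), and Crebbp and Ep300, coactivators of many ETS proteins, had 0.01 and 0.02.

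Ets2, a factor downstream of MAP kinases that is needed in trophoblast, had 7.65, 7.78 and 7.80 in knockout arrays and 8.27, 8.11 and 8.08 in wild-type arrays. The groups did not overlap. The means were 7.74 ± 0.08 in the knockout and 8.16 ± 0.10 in the wild type (SD, n = 3 each), so that the change was -0.41 ± 0.08 (log2, SE; limma adjusted p = 0.0148) or a 1.33-fold fall. Without knockout replicate 1 the adjusted p was 0.0595. A second Ets2 probe set had -0.19 (adjusted p = 0.146) and the remaining one, below the midpoint in both groups, had -0.01.

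Ets1, the closest relative of Ets2 and a regulator of lymphoid and endothelial genes, lay below the midpoint with all 4 probe sets in both groups, and its probe sets disagreed. The brightest ran from 3.94 to 4.09 in both knockout and wild-type arrays (log2 fold change 0.00). Of the other probe sets, 1 likewise had 0.00, and 2 were lower at -0.54 and -0.66 (limma adjusted p = 0.0436 and 0.0433). The first of that lower pair had 3.25, 3.71 and 3.78 in knockout arrays and 4.09, 4.17 and 4.09 in wild-type arrays. The call of the first ended in 4 and that of the second in 5 of the 6 comparisons made with an array omitted. With array weights both calls ended (adjusted p = 0.0552 and 0.0541), as they did with a replicate block (0.0508 and 0.0957). Values this low cannot be separated from background here.

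Of 16 reported targets of Ets1 and Ets2, 4 fell, 1 rose and 11 did not pass (limma; 7 lower and 1 higher at an unadjusted p under 0.05), with a median log2 fold change of -0.22 against 0.02 over all genes. Both groups lay below the midpoint for 8 of the 16, among them the endothelial genes Kdr, Flt1 and Cdh5. The cyclin gene Ccnd1 averaged 9.60 ± 0.02 in the knockout and 10.31 ± 0.07 in the wild type (SD, n = 3 each), so that it changed by -0.71 (log2) (limma adjusted p = 0.00056). Cdh5, at values below the midpoint in both groups, fell by 0.62, Tert by 0.53 and Mmp9 by 0.46, and without knockout replicate 3 the adjusted p of Mmp9 was 0.0526. For each of Cdh5, Tert and Mmp9, 1 of 2 probe sets was called. The receptor gene Tek rose by 0.55.

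Etv6, which encodes a repressor of the ETS family, had 7.96, 7.99 and 8.01 in knockout arrays and 8.50, 8.52 and 8.23 in wild-type arrays. The knockout arrays lay close together below all wild-type arrays. The means were 7.99 ± 0.02 in the knockout and 8.42 ± 0.16 in the wild type (SD, n = 3 each), so that the change was -0.43 ± 0.09 (log2, SE; limma adjusted p = 0.0207) or a 1.35-fold fall. The call ended without any 1 of the knockout arrays or without wild-type replicate 2, with adjusted p values up to 0.0759. The second Etv6 probe set had -0.27 with overlapping groups (adjusted p = 0.357).

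Elf1, a factor best known from blood cells, had 6.74, 7.04 and 6.76 in knockout arrays and 6.81, 6.87 and 6.95 in wild-type arrays. The groups overlapped, and the log2 fold change was -0.02 (95% interval -0.25 to 0.20, limma adjusted p = 0.909). Its second probe set lay below the midpoint and had 0.02.

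Gabpa, the DNA-binding subunit of GABP, had 10.29, 10.19 and 10.16 in knockout arrays and 9.59, 10.07 and 9.99 in wild-type arrays. The groups did not overlap, wild-type replicate 1 was the lowest array, and the change did not pass (log2 fold change 0.33, 95% interval 0.03 to 0.63, limma adjusted p = 0.153). Without wild-type replicate 1 the log2 fold change was 0.18. The second Gabpa probe set had 0.00 (95% interval -0.14 to 0.14). Gabpb1 and Gabpb2, which encode the partner subunits, had -0.01 and -0.08. Of 16 reported GABP targets, 0 fell, 1 rose and 15 did not pass (limma; 1 lower and 4 higher at an unadjusted p under 0.05), with a median of 0.06. The gene that rose was Sdhb, a subunit gene of respiratory complex II (log2 fold change 0.27, limma adjusted p = 0.0399), and its call held only when wild-type replicate 1 was the array left out. That omission also brought Rb1 below the threshold as a lower gene. For Sdhd of this list, 1 of 2 probe sets, not the brightest, was called higher. The mitochondrial transcription factor gene Tfam had -0.03 and the cytochrome oxidase gene Cox4i1 had 0.01.

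Other members of the ETS family were set beside these. Of 16 measured, 3 fell, 1 rose and 12 did not pass (limma; 4 lower and 2 higher at an unadjusted p under 0.05), and 8 lay below the midpoint in both groups, the blood and epithelial genes Fli1 and Ehf among them. The SRF cofactor gene Elk3 had 7.17, 7.20 and 7.01 in knockout arrays and 8.20, 8.05 and 7.91 in wild-type arrays, a log2 fold change of -0.93 (limma adjusted p = 0.00101). Etv2, a regulator of blood and endothelial fate, fell by 0.56. Spic also fell, by 0.54, at values below the midpoint, with an adjusted p of 0.0544 without wild-type replicate 2. Elf2, a close relative of Elf1, rose by 0.29, a call that likewise held only when wild-type replicate 1 was the array left out. Elk1, a partner of MED23 downstream of MAP kinases, had 0.10 and did not pass.

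**Figure D4:**
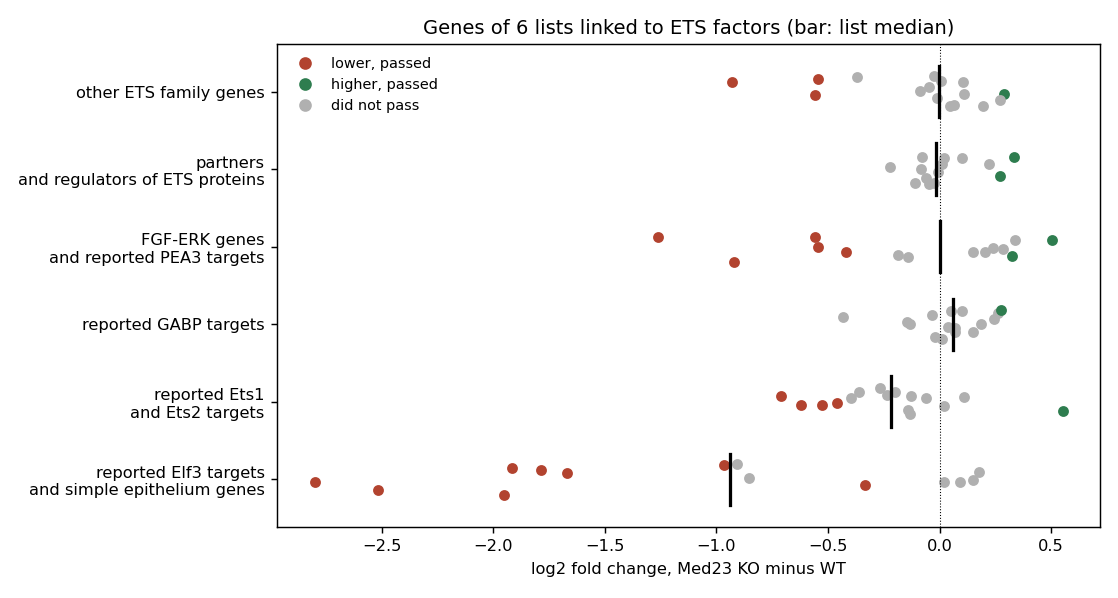
Log2 fold change, Med23 knockout minus wild type, of each measured gene in 6 lists linked to ETS factors, by its brightest probe set; colours give the call and bars the median of the list. The list of reported Elf3 targets and simple epithelium genes has its median at -0.94, and the other 5 medians lie between -0.22 and 0.06.

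The promoter sequences of 3 genes that fell and of Gabpa, which did not pass, are shown to let the reader see how many ETS cores they hold. They are the 250 bases before the annotated start from RefSeq (GRCm38.p6), written 5′ to 3′ on the gene's strand, and capitals mark GGAA and its complement TTCC.
Elf3, chr1:135258473-135258722, minus strand: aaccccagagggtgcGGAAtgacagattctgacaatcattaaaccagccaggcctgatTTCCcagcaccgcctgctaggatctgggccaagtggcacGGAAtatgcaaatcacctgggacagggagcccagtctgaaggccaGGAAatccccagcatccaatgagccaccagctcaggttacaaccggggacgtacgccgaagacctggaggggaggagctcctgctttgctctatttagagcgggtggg
Etv6, chr6:134035450-134035699, plus strand: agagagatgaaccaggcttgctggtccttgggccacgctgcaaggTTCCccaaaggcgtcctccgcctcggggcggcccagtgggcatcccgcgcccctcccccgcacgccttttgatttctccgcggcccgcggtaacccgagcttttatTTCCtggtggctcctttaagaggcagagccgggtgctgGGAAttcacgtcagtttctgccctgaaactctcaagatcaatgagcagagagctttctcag
Ets2, chr16:95702157-95702406, plus strand: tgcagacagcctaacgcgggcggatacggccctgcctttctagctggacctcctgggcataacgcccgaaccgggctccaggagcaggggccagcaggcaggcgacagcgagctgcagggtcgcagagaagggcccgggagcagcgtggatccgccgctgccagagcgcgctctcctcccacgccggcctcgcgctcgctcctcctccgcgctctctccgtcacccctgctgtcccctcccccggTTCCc
Gabpa, chr16:84834874-84835123, plus strand: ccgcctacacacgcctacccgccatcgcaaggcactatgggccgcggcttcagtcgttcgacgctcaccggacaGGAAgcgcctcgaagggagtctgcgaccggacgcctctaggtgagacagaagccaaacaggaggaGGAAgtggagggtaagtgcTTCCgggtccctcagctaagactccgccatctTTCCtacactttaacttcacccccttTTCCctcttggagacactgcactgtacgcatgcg
RefSeq sequences matched 7 of the 9 genes, all but Etv4 and Ets1. The core GGAA was counted on both strands. It occurred 4 times before Elf3, 3 times before Etv6, 1 time before Ets2 and 5 times before Gabpa. Of 32851 promoter windows of the same length, 93.4% held the core, with a median of 3 matches. The longer site CCGGAAG, which contains the core, occurred before Gabpa and before none of the other genes matched, and 6.91% of all windows held it. None of the 4 windows held the AP-1 site TGANTCA (6.75% of all windows), the EGR site GCGNGGGCG (4.7%) or the Capicua octamer TNAATGNA (10.3%), where N is any base. A match is a run of letters and does not show binding.

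Each gene was set beside up to 10 genes on either side with a mean log2 value above 7. Elf3, on chromosome 1, had 20 such neighbours with a median log2 fold change of -0.05, and it was lower than every one of them. Of these neighbours, 4 were called lower and 1 higher. The neighbours next lowest were Btg2 at -0.98 and Phlda3 at -0.81. Etv6, on chromosome 6, was likewise lower than all its 20 neighbours (median 0.17). Ets2, on chromosome 16, was lower than all but 2 of its 17 neighbours (median 0.10). Etv4, on chromosome 11, was lower than all but 1 of its 20 neighbours (median 0.02). The neighbours of Elf1 on chromosome 14 were mixed, with 7 of 20 higher, 3 lower and a median of 0.30, which moved to -0.01 with 20 genes on either side. Over all genes, without the limit on the mean value, 8.53% were higher and 10.4% lower. The region around Etv1 on chromosome 12 had a median of 0.21, and its highest neighbour had 0.53.

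**Figure D5:**
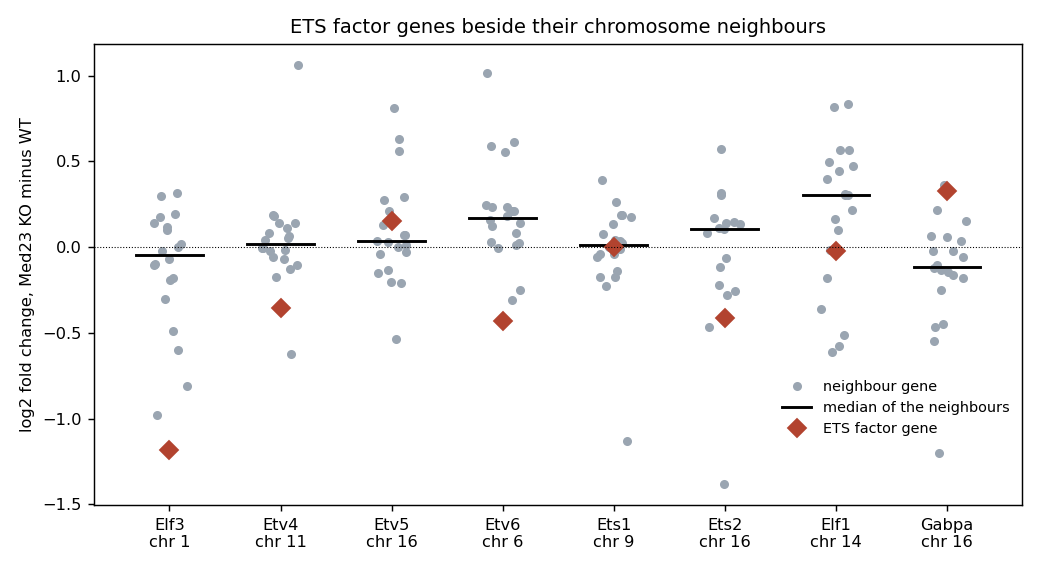
Log2 fold change, Med23 knockout minus wild type, of 8 ETS factor genes (diamonds) and of the genes around each on its chromosome (points), with the median of the neighbours as a bar. Elf3 at -1.18 and Etv6 at -0.43 lie below all their neighbours.

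The genes whose 6 array values ran most like those of the ETS factors that fell were found by the Euclidean distance between values centred on each gene's mean, among 11605 other genes above the midpoint. Nearest to Elf3 were Lgals9, a galectin gene, at a distance of 0.152, and the homeobox gene Rhox6 at 0.217. Their log2 fold changes were -1.14 and -1.29. Tagln2 (0.0496) and Slc44a4 (0.0542) were nearest to Etv4, Napg (0.0662) and Uggt1 (0.0668) to Ets2, and Nqo1 (0.0612) and Manba (0.0664) to Etv6. The distance between Etv4 and Ets2 was 0.131, the smallest between any pair of the 8 ETS factors. All 8 of the nearest genes fell, which their choice by closeness to genes that fell made nearly certain. With 6 arrays in 2 groups, a short distance mostly reflects a like difference between the groups.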

How the data were processed

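Total RNA was labelled as biotinylated cRNA and hybridised to Affymetrix arrays, per the labels' protocols. The authors deposited log2 expression values, 1 column per array; the log base was inferred from their range. The submitters' processing notes mention RMA and MAS5 but assign neither a step; versions and detection calls were not used here, so low values cannot be separated from background. The values were used as deposited.

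The table held 45101 probe sets, 64 of them array controls that were not tested. The platform annotation gave 34945 probe sets 1 symbol, 932 several and 9160 none; 34741 symbols were updated or checked through Entrez identifiers against RefSeq (GRCm38.p6). Each gene was represented by its brightest probe set, by mean over the 6 arrays. Probe sets of a list gene did not always share a call: 1 of 4 was called for Grhl2, 2 of 4 for Elk3, 2 of 5 for Spred2 and 2 of 3 for Mmp14. For Myb, 1 of 3 was called higher and for Flt1, 1 of 4 was called lower, in neither case the brightest. Groups were compared with limma 3.58.1 in R 4.3.3 (lmFit, eBayes, no trend), two-sided, and p values were adjusted by Benjamini-Hochberg across the 45037 probe sets (4 residual degrees of freedom, prior 3.08). Summed marker signals are sums of 2 to the power of the log2 value. The steps were tested on simulated data with independent noise. The planted changes were all larger than those of Etv4, Etv6 and Ets2, so that test does not bear on calls of their size. There were 0 columns of other samples.

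The members, lists and tests were chosen with earlier results of these data known, and the promoter motifs after seeing the data. Lists gave no test. Named were all members, Med23, for each list at most 3 called genes by size of change (failing that, 2 by lowest p), and the 2 nearest profiles of each member called; further list genes, Y-linked genes and neighbours were named after their values were seen. Alternatives are given in the closing section. The number of arrays limits precision.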

Additional observations from a re-analysis of the deposited data

How the results depend on the processing

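Under quantile normalization, centring, an intensity trend, array weights, removal of dim probe sets, the mean over probe sets and a replicate block, 223 of 256 values stayed on the same side of the threshold with the same sign, or, for a count, within 1.5 times the count reported, or, for a neighbour median, within 1 SD between knockout arrays, and the fall of Elf3 passed under each of these and with any 1 array left out. Equal replicate numbers did not pair the arrays: deviations from the group means correlated at -0.13, -0.06 and 0.00 for replicates 1, 2 and 3. With the replicate block, Etv4 (-0.35, adjusted p = 0.0707), Etv6 (-0.43, 0.0506) and Ets2 (-0.41, 0.0573) did not pass, so that 1 of the 8 genes and 1 of the 19 probe sets were lower, and 1915 instead of 3013 of all probe sets were higher; higher counts became 0 for other ETS genes, 0 for partners, 1 for FGF and ERK genes and 0 for GABP targets. Array weights left 4 of the 19 probe sets lower. Removal of dim probe sets also left 4 lower, but it took 6 of the 19 out before testing, the 2 lower Ets1 probe sets among them. Quantile normalization gave 1 partner gene higher. An intensity trend, removal of dim probe sets and the mean over probe sets each gave 1 partner gene lower, and removal of dim probe sets and the mean each gave 2 GABP targets higher. With the mean over probe sets, Etv6 had -0.35 (adjusted p = 0.0735) and Ets1 turned to -0.30 (adjusted p = 0.0366), which follows from its 2 lower probe sets. Values near 0 changed sign without passing: Ets1 had -0.011 and -0.016 (2 probe sets, quantile normalization), the third Ets2 probe set 0.0017 (centring) and the second Gabpa probe set -0.011 (array weights). With 20 genes on either side, neighbour medians were 0.13 (Etv1), 0.059 (Etv4), 0.068 (Etv5), 0.030 (Ets1), 0.086 (Ets2), -0.012 (Elf1) and -0.026 (Gabpa). Other causes were not tested.

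Leaving out 1 array at a time gave 1497 to 3494 probe sets higher in all. Among the ETS factors, 2 to 4 probe sets were lower and 0 to 1 higher, and 1 to 4 genes were lower. Counts higher ran from 0 to 1 for other ETS genes, 0 to 2 for partners, 1 to 3 for FGF and ERK genes and 0 to 1 for GABP targets, of which 0 to 1 were lower. Log2 fold changes ran from -0.40 to -0.27 for Etv4, -0.52 to -0.38 for Etv6, -0.45 to -0.36 for Ets2, -0.033 to 0.043 for Ets1 and -0.12 to 0.028 for Elf1. For probe sets beyond the brightest, they ran from -0.020 to 0.18 for Etv5, -0.15 to 0.11 for Ets1, -0.061 to 0.047 for Ets2, -0.066 to 0.079 for Elf1 and -0.017 to 0.026 for Gabpa. A group of 2 arrays shared its spread with the other group. Signal near background limits what Ets1 can show.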
